A study of Drosophila melanogaster with 23 samples.

Results

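Canton S males were set directly against Hikone R males of the fruit fly Drosophila melanogaster on 2 of the 23 spotted 2-colour cDNA microarrays in the series. These 2 arrays were chosen because the labels place both strains in their channels: on array 1 Hikone R was in channel 1 and Canton S in channel 2, and on array 2 the strains were exchanged between the channels. Of the 6101 features spotted, 4175 (68.4%) had a ratio on both arrays, and array 1 alone gave 4914 ratios and array 2 gave 4258. Canton S is a common laboratory stock, and Hikone R is a strain known for its resistance to the insecticide DDT. No deletion, transgene or treatment is named for either strain. Flies grew at 25 °C without a light cycle, males were taken within 24 hours of emerging and were then kept from females for 3 to 4 days, and RNA came from whole males in lots of 8 to 12 that were joined to 1 pool per strain. The other 6 strains, which serve here only to place these strains, were Oregon R, St Louis, Zimbabwe2, Zimbabwe29, Zimbabwe30 and Zimbabwe53.

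On such an array a spot of DNA binds the labelled cDNA of both samples at once, and its ratio says how much more of that transcript one sample held than the other. Exchanging the dyes turns the ratio round, while a bias of the dye for that spot stays as it was. Strains of a species differ in transcript levels through differences in regulatory sequence, in gene copies and in the make-up of the body, and a ratio from whole males does not separate these. Fewer cells of a type and less RNA per cell cannot be told apart in such samples. The files hold ratios and no intensities, so the signal behind a ratio is unknown, and whether a tissue was present cannot be read from them. No gene of the accessory gland list or of the ovary and yolk list was measured under its name.

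The direction of the ratios is not settled, because the sources used here do not say which channel was divided by which. No gene is therefore called higher in one of the strains. Folds are given by size, and genes are placed either on the side of CG5953, the named gene with the largest difference, or on the opposite side. The values were read as log10 ratios and converted to log2, and every fold depends on that reading. A feature was called where a limma fit of all 8 strains to the 21 arrays that carry different strains gave the Canton S and Hikone R contrast a Benjamini-Hochberg adjusted p under 0.05. The 2 direct arrays repeat the same RNA pools and count as 1 replicate. Arrays of a pair were averaged before the fit, so the p-values measure the disagreement among averaged pairs of strains. They measure neither the spread between exchanged arrays nor that between flies.

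The pair differed by a moderate amount among the comparisons of the series. The SD of the log2 ratios was 0.39 on array 1 and 0.46 on array 2, against 0.28 to 0.52 with a median of 0.39 on the 19 arrays of other pairs. A ratio past 1.5-fold was found for 9.46% of the features of array 1 and 14.1% of those of array 2. Where an array carried 1 strain in both channels, that share was 1.27% for Canton S and 0.617% for Zimbabwe53. With both arrays turned to run the same way, 145 of the 4175 features (3.47%) were past 1.5-fold on both arrays and on the same side. Among the 8 pairs of strains that have such exchanged arrays, this share ranked the pair 4, below St Louis and Zimbabwe53 with 6.36% and above Canton S and Oregon R with 1.7%. Past 2-fold on both arrays were 58 features (1.39%), 41 on the side of CG5953 and 17 on the opposite side, and past 4-fold were 11.

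**Figure D1:**
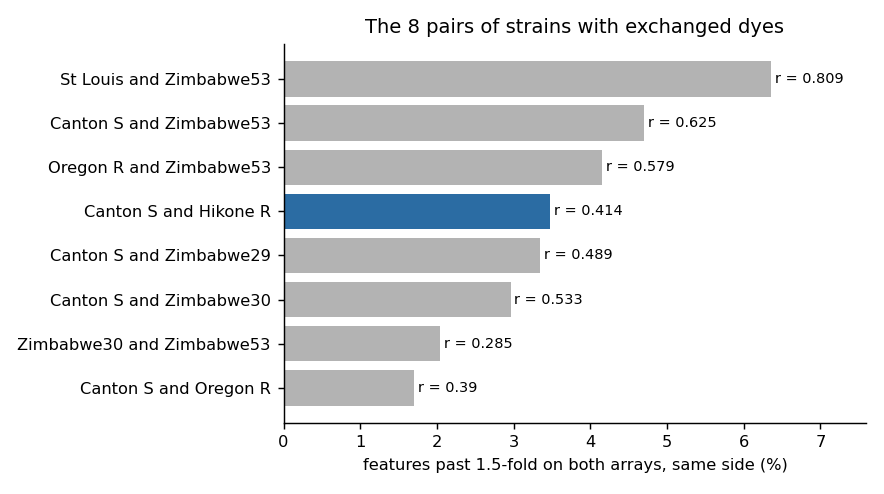
Percentage of features past 1.5-fold on both arrays and on the same side, for each of the 8 pairs of strains hybridised with exchanged dyes, with the correlation r of the turned arrays across features beside each bar. Canton S and Hikone R (blue) had 3.47% and r = 0.414.

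Agreement between the exchanged arrays was limited for the bulk of the features. The turned arrays correlated with r = 0.414 across 4175 features that share slides, pools and dyes, and 2368 of them (56.7%) lay on the same side on both arrays. The mean of the turned arrays had an SD of 0.36 on the log2 scale, and the distance of each array from that mean had one of 0.23. Of the 822 features past 1.5-fold on at least 1 array, 267 (32.5%) lay on the opposite side on the other. When the dye offset of each feature, estimated from the other exchanged pairs, was subtracted from both arrays, r was 0.59 over 4110 features, against 0.419 without it, and 62.1% lay on the same side, against 56.9%.

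The features past 1.5-fold were unevenly spread over the slide. Of the 145, 28 lay in the last 2 of the 20 grid rows of the print blocks, at 5 positions within a block, 4 of which recurred in more than 1 block, and all 28 were on the side of CG5953 with folds of 1.81 to 6.27. None of these 28 features has a single gene symbol in the platform annotation. Outside those rows 117 of 4064 features (2.88%) were past 1.5-fold, and r was 0.35. By this share the pair ranked 5 of the 8, since Canton S and Zimbabwe29 had 3.45%. The median ratio of grid row 1 on array 1 was -0.21 on the log2 scale, against 0.07 on array 2. With each of grid rows 1 to 18 centred on its own median, the fit called 850 features, against 853 without.

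**Figure D2:**
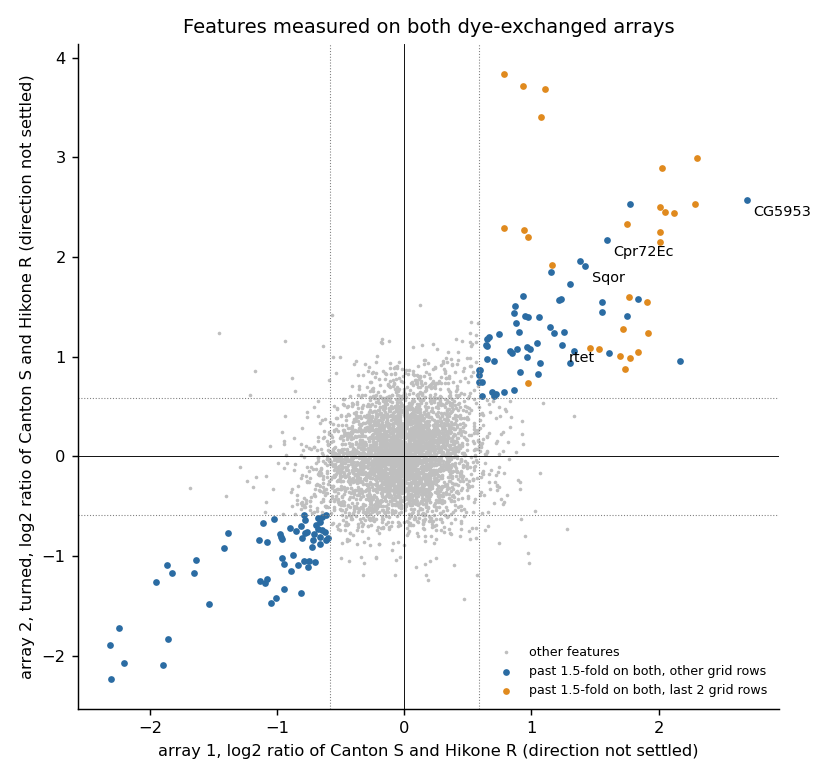
Log2 ratio of Canton S and Hikone R on array 1 (horizontal) and on array 2 after turning (vertical) for 4175 features, with dotted lines at 1.5-fold and the direction not settled. The 28 orange points of the last 2 grid rows all lie on the side of CG5953, and the 117 blue points lie on both sides.

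The fit over all strains called 853 of 4841 features (17.6%), 434 on the side of CG5953 (8.97%) and 419 on the opposite side (8.66%), and 1484 had an unadjusted p under 0.05. The called differences were mostly small: their median was 1.40-fold, with quartiles of 1.32-fold and 1.58-fold, and 283 were past 1.5-fold, 99 past 2-fold and 24 past 4-fold. The median standard error was 0.12 on the log2 scale. Of the 772 called features measured on both direct arrays, 738 (95.6%) lay on the fitted side on both; the direct arrays are part of the fit, so this share is not independent of it. Named genes were called in 208 of 1409 cases (14.8%), 96 on the side of CG5953 and 112 on the opposite side, against 639 of 3338 features with no single gene symbol (19.1%). Among genes with several tested features, 52 of 65 had features that were all called or all not called. Of these, dmGlut, a membrane transporter, was the 1 gene with all of its features called, and the rest had none called. In every other gene with a called feature, another feature was not called.

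The same difference could be read by another route, from the 2 arrays of Canton S and Zimbabwe29 and the 1 array of Hikone R and Zimbabwe29. These share the RNA pools with the direct arrays, and 1 array of Canton S and Zimbabwe29 shares the stem of its title with direct array 2, so the routes are not fully independent. Across 4058 features the direct mean and this indirect value correlated with r = 0.705, with r = 0.643 without the last 2 grid rows, and with r = 0.748 without the array of the shared title stem. Of the 141 features past 1.5-fold on both direct arrays that had an indirect value, 140 (99.3%) lay on the same side and 80.9% were past 1.5-fold there too, against 336 of 3917 other features (8.58%) past 1.5-fold on either side. Their median fold was 2.17 on the direct arrays and 2.04 by way of Zimbabwe29.

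**Figure D3:**
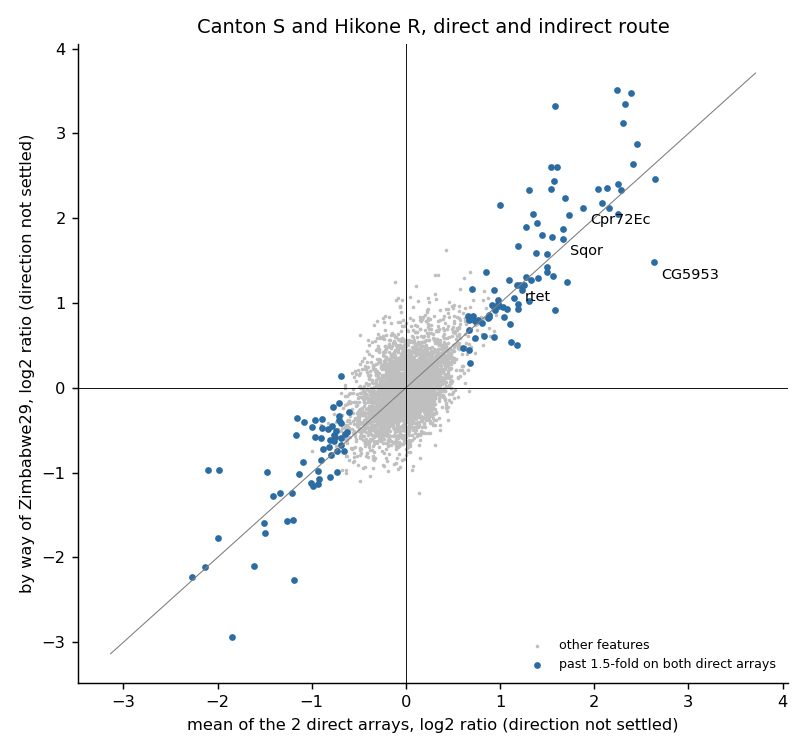
Mean log2 ratio of the 2 direct arrays (horizontal) and the log2 ratio of Canton S and Hikone R by way of Zimbabwe29 (vertical) for 4058 features, with the line of equal values. Of the 141 blue points, past 1.5-fold on both direct arrays, 140 lie on the same side by both routes, and CG5953 lies farthest below the line among the named genes.

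Past 1.5-fold on both direct arrays were 13 of 1219 named genes (1.07%), 7 on the side of CG5953 and 6 on the opposite side, and all 13 were called. The 4 past 2-fold on both were CG5953, Cpr72Ec, Sqor and rtet, all on 1 side. CG5953 (Entrez 34985, chromosome arm 2L in the Release 6 gene table), a protein-coding gene with no other name in the annotation, differed by 6.47-fold on array 1 and 5.96-fold on array 2. In the fit the CG5953 difference was 2.35 ± 0.18 on the log2 scale (SE), or 5.08-fold, with an adjusted p of 1.44e-06. Both arrays gave nearly the same size, but the indirect route gave only 2.79-fold, the largest gap between routes of any named gene.

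Cpr72Ec (Entrez 39816, arm 3L) encodes a cuticle protein of the chitin-binding Rebers and Riddiford family. It differed by 3.01-fold on array 1 and 4.50-fold on array 2, and by 4.35-fold by way of Zimbabwe29. The fitted difference was 1.94 ± 0.20 on the log2 scale, 3.84-fold, with an adjusted p of 1.65e-05. Of the other cuticle genes measured, Cpr49Ac, Lcp65Ag3 and TwdlW had fitted folds of 1.21, 1.08 and 1.12 and were not called. Cpr72Ec was thus 1 called of 4 cuticle genes, a share that so few genes cannot set apart from the 14.8% of all named genes.

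Sqor (Entrez 38514, arm 3L), the mitochondrial sulfide:quinone oxidoreductase that removes hydrogen sulfide, differed by 2.68-fold on array 1 and 3.76-fold on array 2, with 3.38-fold by the indirect route. Its fitted difference was 1.69 ± 0.10 on the log2 scale, 3.22-fold, and its adjusted p was 7.51e-07. Routes and arrays thus gave Sqor a similar size. The other 6 genes of the central metabolism list, Glyp, Got2, Mipp1, Pfk, Treh and fbp, had fitted sizes of 0.02 to 0.29 on the log2 scale and none was called.

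rtet (Entrez 42500, arm 3R), named for its likeness to bacterial tetracycline efflux transporters, differed by 2.36-fold and 2.16-fold on the direct arrays and by 2.32-fold by way of Zimbabwe29. The fit gave 1.19 ± 0.12 on the log2 scale, 2.27-fold, with an adjusted p of 2.29e-05. CG5953, Cpr72Ec, Sqor and rtet were called under each of the alternative settings in which they could be fitted.

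The other 5 named genes on the side of CG5953 among the 20 with the largest direct ratio were Jabba, CG13868, yip7, cutlet and Idgf2. Jabba, the lipid droplet protein that holds histones there, differed by 1.95-fold on array 1 and 2.14-fold on array 2, and its fitted fold was 2.01 (adjusted p = 6.07e-05). CG13868 differed by 1.78-fold and 2.08-fold on the arrays, and its fitted fold was 1.91 (adjusted p = 3.57e-05). These genes had like sizes on both arrays. yip7, a trypsin-like serine protease, did not: it had 1.33-fold on array 1 and 2.27-fold on array 2, with a fitted fold of 1.75 (adjusted p = 0.000811). cutlet, the large subunit of the Ctf18 clamp loader, had 1.72-fold and 1.56-fold, and Idgf2, a secreted chitinase-like growth factor, had 1.29-fold and 1.97-fold. Without the direct arrays CG13868 was still called, and the adjusted p was 0.0623 for Jabba, 0.139 for yip7, 0.191 for cutlet and 0.445 for Idgf2.

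On the opposite side stood 11 of the 20 genes, with fitted folds of 1.51 to 2.04. Non1, a nucleolar GTPase of large ribosomal subunit assembly, differed by 2.21-fold on array 1 and 1.79-fold on array 2, and by 2.22-fold by way of Zimbabwe29 (fitted fold 2.04, adjusted p = 2.59e-05). eco, the acetyltransferase that fixes cohesin on replicated chromatids, differed by 1.69-fold and 2.16-fold on the arrays and by 1.97-fold indirectly (fitted fold 1.92, adjusted p = 2.21e-05). dpp, the BMP-type ligand of wing and body axis patterning, differed by 1.65-fold and 1.88-fold (fitted fold 1.74, adjusted p = 0.000352) on a feature with 13 usable arrays. The second dpp feature had too few pairs for the fit and lay on the same side, with 1.25-fold on array 1 and 2.29-fold on array 2.

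Acat1, Pisd and bgm, also on this side, had larger ratios on array 1 than on array 2. Acat1, the mitochondrial acetyl-CoA acetyltransferase, had 2.61-fold on array 1 and 1.71-fold on array 2, but 1.32-fold by way of Zimbabwe29 (fitted fold 1.88, adjusted p = 0.000839). Pisd, which makes phosphatidylethanolamine in mitochondria, had 2.13-fold and 1.47-fold. bgm, a very long chain acyl-CoA synthetase, had 2.36-fold on array 1 and 1.19-fold on array 2. Their calls were lost without the direct arrays, where the adjusted p was 0.47 for Acat1, 0.464 for Pisd and 0.396 for bgm, and without array 1 alone it was 0.0722 for bgm. Of the remaining 5 genes, CG10934, Sgp, Psa (a puromycin-sensitive aminopeptidase), Vps51 (a subunit of the tethers that recycle vesicles to the Golgi and endosomes) and CG5445, the fitted folds ran from 1.51 for Psa to 1.77 for CG10934. Of these 5, CG5445 was called also without the direct arrays, where the adjusted p was 0.476 for CG10934, 0.686 for Sgp, 0.478 for Psa and 0.224 for Vps51, and without array 1 alone it was 0.0918 for Sgp. All 20 genes lay on the same side by the indirect route.

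**Figure D4:**
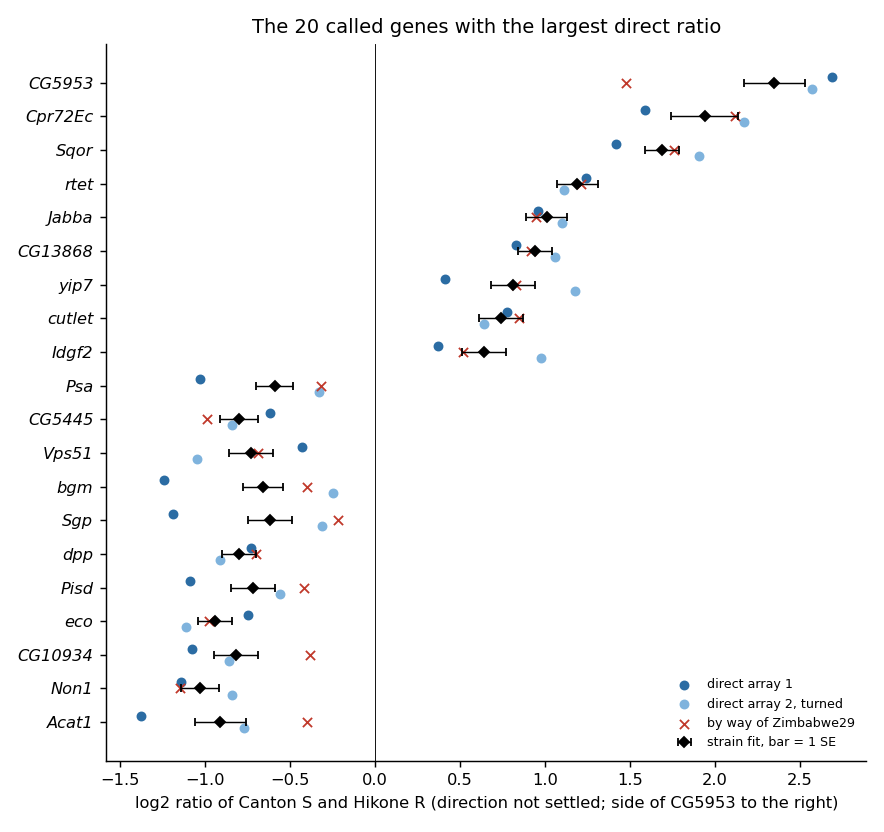
Log2 ratio of Canton S and Hikone R for the 20 called named genes with the largest direct ratio: both direct arrays (blue), the route by way of Zimbabwe29 (red cross) and the fit with 1 SE (black). CG5953, with 2.35 ± 0.18, lies farthest out, and 11 genes lie on the opposite side; the direction is not settled.

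Comparison with the mean of the other 6 strains showed which strain lay farther from that mean for a gene. Distances are from that mean, and the spread among the 6 strains was not set beside them. CG5953 lay 0.72 ± 0.10 on the log2 scale from the other 6 in Canton S and 3.07 ± 0.20 in Hikone R (SE), on the same side of them. The fit thus placed Hikone R 8.39-fold from the mean of the other strains. That distance leans on the direct arrays, with a mean of 6.21-fold for the pair, where the route by way of Zimbabwe29 gave 2.79-fold. For Sqor the distances were 0.34 ± 0.06 in Canton S and 1.35 ± 0.12 in Hikone R, on opposite sides. Acat1 had 0.10 ± 0.08 in Canton S and 0.81 ± 0.16 in Hikone R, and Idgf2 had 0.07 ± 0.07 in Canton S and 0.71 ± 0.13 in Hikone R. Hikone R was thus the farther strain for these 4 genes. Canton S lay within 2 SE of the mean of the other strains for Acat1 and Idgf2, but not for CG5953 and Sqor.

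The pattern was reversed for others. rtet lay 1.02 ± 0.07 from the other 6 strains in Canton S and 0.16 ± 0.13 in Hikone R. yip7 had 0.79 ± 0.07 in Canton S and 0.02 ± 0.14 in Hikone R, and dpp had 0.69 ± 0.09 in Canton S and 0.11 ± 0.13 in Hikone R. For these genes Canton S was the farther strain, and Hikone R lay within 2 SE of the mean of the other strains. Cpr72Ec stood between: Canton S lay 0.99 ± 0.13 to one side and Hikone R 0.95 ± 0.23 to the other, so that neither strain alone made its 3.84-fold difference.

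Over all called named genes, Hikone R was farther from the other 6 strains than Canton S in 158 of 208 (76.0%), and the strains lay on opposite sides of the other 6 in 151 (72.6%). Calling selects for a difference between these strains, which by itself favours opposite sides, and the share on opposite sides over all features was not computed. Among all tested features Hikone R was the farther strain in 68.4%. Hikone R was on 3 of the 21 arrays and Canton S on 11, and the standard errors of Hikone R were the larger for each of the 20 genes; the part of this difference in error in those shares was not tested.

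**Figure D5:**
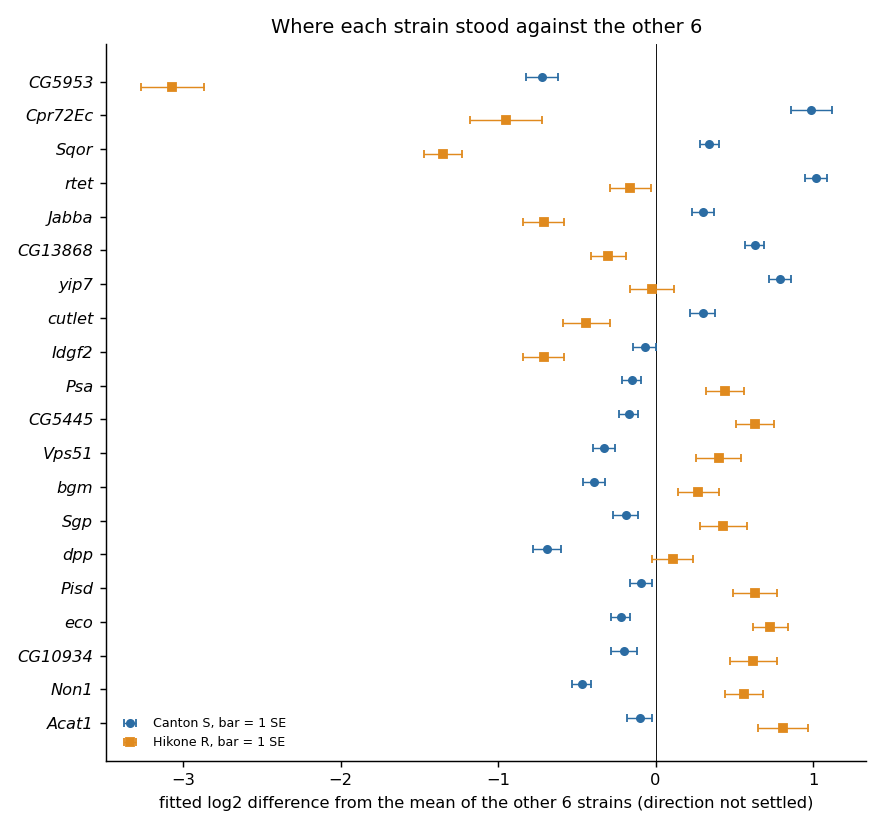
Fitted log2 difference of Canton S (circles) and of Hikone R (squares) from the mean of the other 6 strains for the same 20 genes, with bars of 1 SE. Hikone R is the farther strain for 14 of the 20. The strains lie on opposite sides of 0 for 18, which is favoured by choosing genes for a large difference between them. The direction is not settled.

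Detoxification enzymes, the cytochrome P450s, glutathione S-transferases and glucuronosyltransferases that modify toxins, are a group often studied in insecticide-resistant strains. Of 10 genes measured on this list, drawn up by gene symbol, 3 were called, against 14.8% of named genes and 17.6% of all features. The median fitted size of the 10 was 0.17 on the log2 scale, against 0.16 for all named genes. Enzymes of these families that were not measured under their names are outside this comparison. GstE13 differed by 1.17-fold on array 1 and 1.69-fold on array 2 (fitted fold 1.43, adjusted p = 0.0293), and GstE12 by 1.22-fold and 1.28-fold (fitted fold 1.30, adjusted p = 0.0482), both on the side of CG5953. The call of GstE12 was lost under 17 and that of GstE13 under 8 of 33 alternatives. For GstE13 the adjusted p was 0.0623 without array 1 and 0.128 without array 2. Cyp12d1-p, a mitochondrial cytochrome P450, lay on the opposite side with 1.25-fold and 1.48-fold (fitted fold 1.33, adjusted p = 0.0131), a call lost under 5 of 34 alternatives, among them without array 1 (adjusted p = 0.0718) and without array 2 (adjusted p = 0.0722). Both strains stood on the same side of the other 6 for Cyp12d1-p, by 1.16 ± 0.06 in Canton S and 0.75 ± 0.11 in Hikone R, so that their distance from the other strains was larger than that between them. Cyp6u1, Cyp4ac1, Cyp4g15, GstZ2, Ugt35A1 and Ugt50B3 were not called, and Cyp6u1 came nearest with an adjusted p of 0.0568. Cyp1, also not called, shares the list by its symbol and is a cyclophilin, not a cytochrome P450.

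Of 7 genes of the testis and sperm development list, 4 were called, all on the side opposite to CG5953. On that side 112 of 1409 named genes and 8.66% of all features were called. With 1 feature per gene, the median fitted size of the list was 0.42 on the log2 scale, against 0.16 for all named genes. Over all features of each gene, the median difference was only 0.13 in size for janB and 0.17 for ocn. The size of the list and the calls of janB and ocn thus depend on the feature chosen. Hsp60B, the testis form of the mitochondrial chaperonin, differed by 1.64-fold on array 1 and 1.31-fold on array 2 (fitted fold 1.52, adjusted p = 0.0288). Prosbeta4R2, a testis variant of a proteasome subunit, differed by 1.55-fold and 1.15-fold (fitted fold 1.35, adjusted p = 0.0214). janB and ocn, sperm-protein genes of the janus region, each had a fitted fold of 1.34. Other features of these genes were not called: of 8 janB features 1 was called, with fitted folds from 1.02 to 1.34, and of 9 ocn features 1 was called, with 6 on the opposite side and 3 on the side of CG5953. The calls of Hsp60B, Prosbeta4R2, janB and ocn were lost under 6, 4, 7 and 9 of 34 alternatives. Without array 1 the adjusted p was 0.11 for Hsp60B, 0.314 for Prosbeta4R2, 0.0873 for janB and 0.166 for ocn. Cdlc2 and ctp, dynein light chains, and heph, an RNA-binding protein of sperm individualisation, had fitted folds of 1.10 to 1.11 and were not called.

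In the lipid list, drawn up by gene symbol, 3 of 9 genes were called, against 14.8% of all named genes, and they lay on both sides. The list does not hold every lipid gene measured: Jabba, Pisd and bgm, called and described above, are outside it. Besides Acat1, Fatp1, a fatty acid transport protein, lay on the opposite side with 1.41-fold on array 1 and 1.09-fold on array 2 (fitted fold 1.29, adjusted p = 0.0121), and its call was lost without array 1 (adjusted p = 0.125). CG5966, a lipase-like gene, lay on the side of CG5953 with 1.32-fold and 1.33-fold (fitted fold 1.37, adjusted p = 0.00818). The CG5966 call was lost under 3 of 33 alternatives, among them without both direct arrays and without array 2 of Canton S and Zimbabwe53. FASN1, Lsd-2, bmm, bond, mag and mdy, which make, store or break down fat, were not called and had fitted sizes of 0.01 to 0.19 on the log2 scale.

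The 1 gene of the immune list that was measured, vanin-like, a relative of the vertebrate pantetheinases, had no value on array 2. It differed by 3.10-fold on array 1 and by 2.73-fold by way of Zimbabwe29, on the side opposite to CG5953 (fitted difference 1.51 ± 0.14 on the log2 scale, 2.85-fold, adjusted p = 6.72e-06). Canton S lay 1.33 ± 0.06 from the other 6 strains for this gene and Hikone R 0.18 ± 0.15. Both genes of the short nucleotide metabolism list were called, against 14.8% of named genes: Adk3, an adenylate kinase, on the opposite side with 1.72-fold and 1.41-fold (fitted fold 1.66, adjusted p = 0.00074), and NT5E-2, a 5′-nucleotidase relative, on the side of CG5953 with 1.02-fold and 1.62-fold (fitted fold 1.31, adjusted p = 0.0418). The NT5E-2 call was lost under 16 of 34 alternatives.

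In the ribosomal, proteasome, muscle and respiratory lists the calls are to be read against the 14.8% of named genes called. Of 4 cytoplasmic ribosomal protein genes, RpS10a was called on the opposite side, with 1.04-fold on array 1 and 1.81-fold on array 2 (fitted fold 1.37, adjusted p = 0.00552, and 0.122 without array 2), and none of the 12 features of RpL32 was called, with fitted folds of 1.03 to 1.32. Of 5 proteasome genes, Rpn1 was called with a fitted fold of 1.30 on the opposite side (adjusted p = 0.0287, and 0.253 without array 1), and Prosbeta7, Rpn2, Rpn6 and Rpt5 were not. None was called among 4 muscle genes (Prm, Strn-Mlck, Zasp66 and up), 2 mitochondrial ribosomal protein genes (mRpL16 and mRpL54) and 2 of oxidative phosphorylation (COX7C and ND-51), where the adjusted p of limma ran from 0.0827 for Prm to 0.967 for mRpL16. At an unadjusted p under 0.05, Prm and mRpL54 would have passed, with 0.0183 and 0.0203.

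The calls in the remaining lists stand beside the same 14.8% of named genes. Of 6 chaperone genes, Hsp60B was called on the opposite side, and CCT2, a chaperonin subunit, and Gp93, an Hsp90 of the endoplasmic reticulum, on the side of CG5953, with fitted folds of 1.34 and 1.30. Gp93 lay on opposite sides on the direct arrays, at -0.18 on the log2 scale on array 1 and 1.15 on array 2. Its call was lost under 9 of 34 alternatives, and without array 2 its fitted difference was 0.04 on the log2 scale (adjusted p = 0.876). The CCT2 call was lost without array 2 as well (adjusted p = 0.328). Of 7 clock and eye genes, rdgA, the diacylglycerol kinase of photoreceptors, was called with a fitted fold of 1.28, while its other feature had 1.13-fold on the opposite side and was not; without array 1 the adjusted p of rdgA was 0.445. Of 6 genes of vesicle transport, Rab14 was called with a fitted fold of 1.24 (adjusted p = 0.0479), and this call was lost under 19 of 34 alternatives. Obp19d, an odorant-binding protein, was called on the opposite side (fitted fold 1.30, adjusted p = 0.023), a call lost without array 1 (adjusted p = 0.11) and without array 2 (adjusted p = 0.0925); Oseg1 and Osi14, which share its list by their symbols and are not odorant-binding proteins, were not. yip7 was the 1 of 2 serine protease genes called, and sphe had a fitted fold of 1.03.

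Some large ratios did not pass the test or did not repeat. The largest direct ratios among named genes that were not called were those of CG43755, unc-13, CG3795, CG2129 and CstF50, with direct folds of 1.40 to 1.48 and adjusted p-values of 0.0529 to 0.258. By way of Zimbabwe29, unc-13, CG3795, CG2129 and CstF50 lay on the other side of 0. With 1 feature per gene, the widest gaps between the routes after CG5953 were those of erm, fs(2)ltoPP43, Lsd-2 and CG15233. They were 0.90 to 1.03 on the log2 scale, and none of these genes was called. Features of RpL32 and janB that did not stand for their genes had gaps of up to 1.11 and 1.10. CG11357, Gp93, Dp1, CG32444 and CG5181 were past 1.5-fold on 1 direct array and on the opposite side on the other. CG11357 had 0.57 on array 1 and -1.19 on array 2 on the log2 scale and was not called (adjusted p = 0.247). Dp1, the vigilin homologue, had -0.17 and 1.14 and was called with an adjusted p of 0.0464, but without array 2 its fitted difference was -0.03 on the log2 scale with an adjusted p of 0.899.

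By chromosome arm, 28 of 252 X-linked named genes were called (11.1%), 38 of 248 on 2L (15.3%), 47 of 255 on 2R (18.4%), 43 of 284 on 3L (15.1%), 49 of 352 on 3R (13.9%) and 3 of 17 on chromosome 4 (17.6%). The median fitted size was 0.13 on the log2 scale on the X, 0.16 on each of 2L, 2R, 3L and 3R, and 0.24 on chromosome 4 with its 17 genes. Differences between arms were not tested.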

How the data were processed

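The authors deposited 1 table for 6101 features by 23 arrays, whose values are log ratios of the channels and were read as log10 ratios, though no source states the base or the direction. How spots were scanned, filtered and normalized is not given in the sources used here. Ratios were put on the log2 scale and centred array by array on the median. The dye offset of a feature, from the 8 channel-exchanged pairs, was subtracted, arrays of a pair were averaged after turning, and 8 strain levels were fitted to the 13 pairs, weighted by arrays, with limma 3.58.1 in R 4.3.3. Features needed 10 of 13 pairs, 3 exchanged pairs and all strains estimable, which left 4841. The procedure was tested on simulated data. Indirect values used the dye offset too. Direct values had none subtracted.

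Gene names came from the platform annotation: 1943 features had 1 symbol, 67 several and 4091 none here, and only the first kind is named. Chromosome arms came from the Release 6 RefSeq table. One feature stood for a gene, the one measured on most arrays and then with the lowest residual SD. Named were the 20 called genes on the same side on both direct arrays with the largest direct mean, the members of 19 lists (the 4 largest of longer lists, the rest by name only), the 5 largest not called, the 5 with the widest gap between routes and the 5 largest on opposite sides. FASN1, Lsd-2, bmm, bond and mdy and the uncalled genes of the detoxification list are listed to complete their groups, and dmGlut was named after its values were seen. The pair of strains, the lists and the rules were chosen with earlier results of these data known. Alternatives changed centring, scaling, weights, dye offset, filters and arrays; centring within grid rows and subtracting the dye offset of the other pairs were added after the data were seen. No spot intensities were used, so spots of low signal could not be set apart. The number of arrays also limits the precision.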

Additional observations from a re-analysis of the deposited data

How the results depend on the processing

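The count of called features lay within 1.5 times of 853 under 29 of 34 alternatives. It was 541 with arrays scaled to equal spread, 431 of 1727 features measured on every array (25.0%), 173 from the 2 direct arrays alone and 137 without both of them. Leaving out 1 array at a time gave 456 to 1029 calls, with 456 without direct array 1, 571 without direct array 2 and 609 without the only array that joins Hikone R to Zimbabwe29. Of the 173 calls, 170 were among the 853, as were 124 of the 137, on the same side in each case. The labels give no replicate numbers, so arrays were numbered in accession order; with the shared stem of the array titles as a replicate block, single arrays gave 998 calls.

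The 145 features past 1.5-fold became 58 at 2-fold and 11 if the deposited values were log2; leaving out a direct array gave 395 to 588. The SD of 0.36 became 0.39 to 0.46 on single arrays, and the direct and indirect correlation ran from 0.56 to 0.748 with 1 array left out (0.588 without array 1 of Canton S and Zimbabwe29). Dp1 turned to -0.07 without both direct arrays (adjusted p = 0.91) and to -0.03 without array 2 (adjusted p = 0.899). Of 41 named called genes, 10 were called under every alternative in which they could be fitted, 14 were lost under 1 to 3 and 17 under more. Among these 10, dpp could be fitted under only 19 of 34 alternatives. With Hikone R on 3 arrays and 1 RNA pool per strain, differences between flies could not be measured.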
